A study of Homo sapiens with 8 samples.

Results

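This report follows 9 target genes of the tumour suppressor p53 in human aortic endothelial cells given estradiol: MDM2, BTG2, TP53INP1, SESN1, GDF15, FAS, ZMAT3, RRM2B and TIGAR. They were taken by gene symbol from a deposited table of 34415 genes, and all 9 passed the filter on low values (a mean of at least 1 FPKM). FPKM is a transcript level, scaled by transcript length and by the size of the library. The cells were TeloHAEC, a wild-type line of human aortic endothelial cells immortalised with telomerase. The estradiol group held 4 libraries of cells given estradiol, the main estrogen, together with palmitic acid, a saturated fatty acid. The control group held 4 libraries of cells given palmitic acid without estradiol, so every library carries the fatty acid. Palmitic acid was meant to imitate the surroundings of a vessel prone to atherosclerosis. The titles give palmitic acid for both groups, while a treatment tag names it for the estradiol libraries alone. The labels state neither doses nor exposure times. They also do not tell whether replicates were separate cultures, so a p-value reflects the spread among these libraries alone, possibly a technical one.

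p53 is a transcription factor that is kept low in unstressed cells and is stabilised by DNA damage and other stress. It then binds DNA at paired half-sites and raises genes that halt the cell cycle, repair DNA, adjust metabolism or trigger cell death. MDM2 closes a feedback loop, since p53 induces it and its protein marks p53 for degradation. In endothelial cells the pathway is known for its part in growth arrest, senescence and cell death. The transcripts of its targets are a common readout of p53 activity, although several of them are also driven by other factors.

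Of the 9 genes, 7 had windows in the RefSeq promoter table (GRCh38.p14), each running from 250 bases before to 50 bases after an annotated transcript start. Each window was searched for the p53 full-site consensus, which is 20 letters long and made of 2 adjoining half-sites of 10 letters. Up to 3 mismatches were allowed, none of them at the fixed C and G of a half-site. The consensus reads the same on both strands. A match was present for 4 of these 7 genes (5 of their 15 windows), against 1.37% of all 27305 genes and 1.12% of all 35116 windows, and for 5 of the 24 other p53 targets with a window. The window count holds the same MDM2 match more than once, since MDM2 windows overlap. A gene with more windows also has more room for a match. The matches of the 4 genes are shown because they show the kind of sequence p53 is known to bind; capitals mark the match. A match describes the sequence and does not show binding, which was not measured.
MDM2: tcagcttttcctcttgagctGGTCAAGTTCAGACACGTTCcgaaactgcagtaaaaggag
FAS: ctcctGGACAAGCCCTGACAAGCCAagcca
SESN1: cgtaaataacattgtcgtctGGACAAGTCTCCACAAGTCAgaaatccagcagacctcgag
GDF15: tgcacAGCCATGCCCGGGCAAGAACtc

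The MDM2 stretch lies at chr12:68808903-68808962 on the plus strand, with 2 mismatches, and its match begins 94 or 101 bases before the inner starts of MDM2 (those of its p53-responsive promoter) and outside reference exons. The FAS stretch lies at chr10:88991304-88991333 on the plus strand, with 2 mismatches. Its match begins 122 bases before an inner FAS start, in a stretch that other reference transcripts hold as an exon. The SESN1 stretch lies at chr6:109008998-109009057 on the minus strand, with 3 mismatches, 49 bases before an inner start and outside reference exons. The GDF15 stretch lies at chr19:18386181-18386207 on the plus strand, with 3 mismatches, and its match begins 28 bases after the start, inside an exon. The windows of BTG2, ZMAT3 and TIGAR held no match, which says only that these letters are absent there.

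The p53 targets were all expressed, at levels that spanned 2 orders of magnitude. GDF15 was by far the most abundant, at a mean of 489 FPKM over the 8 libraries, which put it 86th among the 10720 genes tested. RRM2B followed at 65.2 FPKM, then MDM2 at 45.9, ZMAT3 at 15.5, TP53INP1 at 13.3, BTG2 at 8.32, TIGAR at 6.49, SESN1 at 3.83 and FAS at 2.84 FPKM. FPKM is scaled by length, and the length behind the deposited values was well above that of the longest reference transcript for FAS (9284 against 2563 bases), TIGAR (8209 against 3633), SESN1 (6097 against 3509) and GDF15 (1719 against 1200). On the reference lengths, a choice made after seeing the data, TIGAR would stand at 14.7, FAS at 10.3, BTG2 at 8.37 and SESN1 at 6.65, so the order of the lower genes depends on the length used, while GDF15, RRM2B and MDM2 stay the highest. On the deposited values each gene stood above the next in 8 of 8 libraries, except BTG2 and TIGAR, whose order held in 6 of 8. BTG2 was below TIGAR in estradiol replicate 4 and in control replicate 3.

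No gene of the 9 passed the test between estradiol and control. The test was limma on log2(FPKM + 1), with p-values adjusted over all 10720 genes by the Benjamini-Hochberg method, and it called 0 of these 9 genes against a background of 0% of all genes. At an unadjusted p under 0.05 it also gave 0 of the 9, against 0.243% of all genes (26 genes). limma-voom on recovered reads likewise called 0 genes, with 23 at an unadjusted p under 0.05 and 0 of the 9 among them. The estradiol and control libraries overlapped for all 9 genes, while they did not overlap for 0.532% of all genes (estradiol above control in 0.308%, below it in 0.224%). Over all tested genes the median log2 fold change was -0.000471, with 5308 positive and 5412 negative values. That of the 9 was -0.02, with 4 positive and 5 negative values. This balance rested on single libraries: without control replicate 3, 8 of the 9 values were positive (median 0.06), and without estradiol replicate 4, 2 of the 9 were positive (median -0.13). Log2 fold changes below are estradiol minus control on the log2(FPKM + 1) scale, which understates changes of low genes. The adjusted p was 0.999989 for every one of the 9. The libraries are bulk RNA, so fewer cells expressing a gene and less RNA per cell cannot be told apart.

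**Figure D1:**
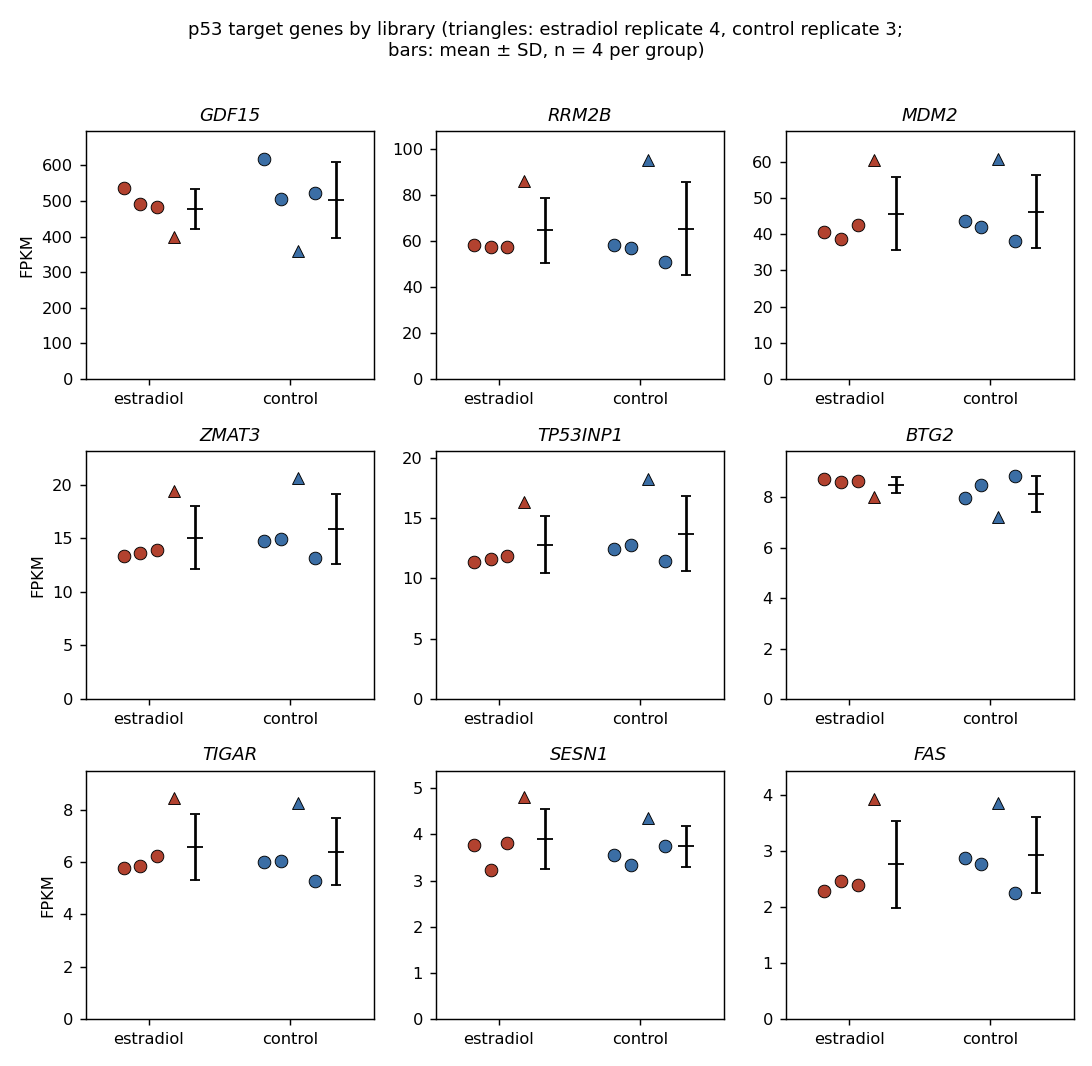
FPKM of the 9 p53 targets in each library, with estradiol left and control right; each point is a library and the bars give the mean ± SD (n = 4 per group). Triangles mark estradiol replicate 4 and control replicate 3, which stand above the other 6 libraries for 7 genes and below them for GDF15, with the lowest control value for BTG2 in control replicate 3.

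MDM2, the ubiquitin ligase that limits p53, measured 40.6, 38.7, 42.5 and 60.5 FPKM in estradiol replicates 1 to 4, against 43.7, 42.0, 60.8 and 38.2 FPKM in control replicates 1 to 4. Each group held 1 high library, estradiol replicate 4 and control replicate 3, and the other values of the groups overlapped. The means were 45.6 ± 10.1 FPKM with estradiol and 46.2 ± 10.04 FPKM in control (SD, n = 4 each), a log2 fold change of -0.02 ± 0.17 (SE). The 95% interval of that log2 fold change ran from -0.41 to 0.37.

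GDF15, a secreted cytokine of the TGF-beta superfamily, measured 535, 492, 482 and 399 FPKM in the estradiol libraries, against 619, 505, 360.5 and 523 FPKM in the control libraries. Here the libraries that were high for MDM2 were the lowest of their groups. The means were 477 ± 56.8 FPKM with estradiol and 502 ± 107 FPKM in control (SD, n = 4 each), a log2 fold change of -0.05 ± 0.16 (SE) with a 95% interval from -0.41 to 0.31.

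FAS, the death receptor that recruits FADD and caspase-8, measured 2.28, 2.45, 2.38 and 3.92 FPKM in the estradiol libraries, against 2.86, 2.75, 3.85 and 2.24 FPKM in the control libraries. The high library of each group was again estradiol replicate 4 and control replicate 3. FAS averaged 2.76 ± 0.777 FPKM with estradiol and 2.93 ± 0.673 FPKM in control (SD, n = 4 each; log2 fold change -0.07 ± 0.16 SE; 95% interval -0.42 to 0.28). The FAS locus overlaps ACTA2, at a mean of 11.8 FPKM, and whether the counting used strand is not stated, so reads of the pair may not be fully separated. The same limit holds for TP53INP1 with NDUFAF6 (mean 2.07 FPKM), SESN1 with ARMC2 (0.897 FPKM) and MDM2 with CPM (0.0188 FPKM). For TP53INP1, SESN1 and MDM2 the overlapping gene stood below the p53 target, while ACTA2 stood above FAS.

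Growth-restraining targets came next. BTG2, an antiproliferative partner of the CCR4-NOT deadenylase, measured 8.73, 8.60, 8.64 and 8.01 FPKM in the estradiol libraries, against 7.99, 8.50, 7.21 and 8.85 FPKM in the control libraries. Its values were the most even of the 9, with a coefficient of variation of 3.86% with estradiol and 8.78% in control. The log2 fold change was 0.06 ± 0.08 (SE), with a 95% interval from -0.13 to 0.25. SESN1, a sestrin that restrains mTORC1 signalling, measured 3.77, 3.22, 3.83 and 4.80 FPKM in the estradiol libraries, against 3.55, 3.33, 4.36 and 3.74 FPKM in the control libraries. The groups overlapped over most of their range, and the log2 fold change was 0.04 ± 0.11 (SE; 95% interval -0.21 to 0.29).

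TP53INP1, a stress-induced protein that promotes p53 activity and autophagy, measured 11.4, 11.6, 11.8 and 16.4 FPKM in the estradiol libraries, against 12.4, 12.8, 18.3 and 11.4 FPKM in the control libraries. It had the most negative log2 fold change of the 9, at -0.09 ± 0.16 (SE; 95% interval -0.44 to 0.27), from means of 12.8 ± 2.39 FPKM with estradiol and 13.7 ± 3.09 FPKM in control (SD, n = 4 each). ZMAT3, a zinc-finger RNA-binding protein, measured 13.4, 13.6, 13.9 and 19.4 FPKM in the estradiol libraries, against 14.7, 14.9, 20.6 and 13.2 FPKM in the control libraries. The log2 fold change of ZMAT3 was -0.07 ± 0.16 (SE; 95% interval -0.42 to 0.28), and within each group its libraries took the same order as those of TP53INP1.

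The metabolic targets showed the same layout. RRM2B, the p53-induced small subunit of ribonucleotide reductase that supplies nucleotides for DNA repair, measured 58.6, 57.4, 57.4 and 86.1 FPKM in the estradiol libraries, against 58.5, 56.98, 95.5 and 51.1 FPKM in the control libraries. It had the widest spread, with a 1.87-fold range over the 8 libraries, and a log2 fold change of 0.01 ± 0.20 (SE; 95% interval -0.45 to 0.46). TIGAR, a phosphatase that lowers glycolytic flux, measured 5.78, 5.87, 6.24 and 8.45 FPKM in the estradiol libraries, against 5.998, 6.06, 8.24 and 5.29 FPKM in the control libraries. Its log2 fold change was 0.04 ± 0.15 (SE; 95% interval -0.29 to 0.36). For all 9 genes both bounds of the interval lay within 1 log2 unit of 0.

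**Figure D2:**
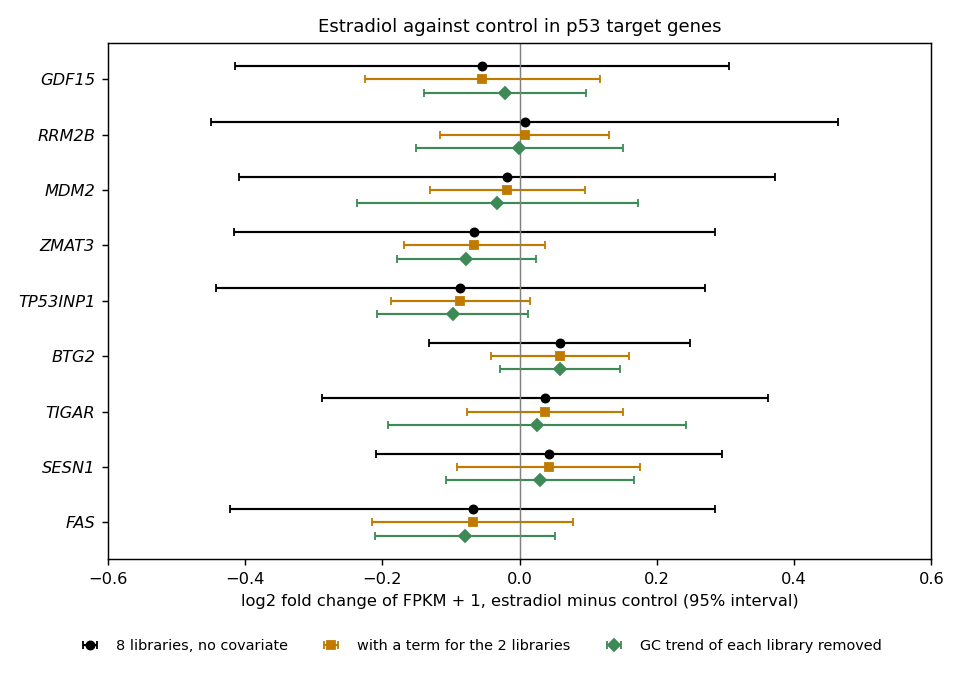
Log2 fold change of FPKM + 1 (estradiol minus control) with its 95% interval for each p53 target, from the fit of the 8 libraries, from a fit with a term for estradiol replicate 4 and control replicate 3, and from values after removal of each library's GC trend. Every interval includes 0, and the median half-width is 0.353, 0.114 and 0.131 in the 3 fits. The libraries given a term were picked by their values, so the intervals of that fit may be too narrow.

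The difference among libraries that did not follow the groups was larger than the one between groups. In 7 of the 9 genes (MDM2, TP53INP1, SESN1, FAS, ZMAT3, RRM2B and TIGAR) estradiol replicate 4 and control replicate 3 were both above the other 6 libraries, against 34.6% of all tested genes. In GDF15 both were below the other 6, against 43.9% of all tested genes. RRM2B in estradiol replicate 4 stood at 1.49 times the mean of the other estradiol libraries, and in control replicate 3 at 1.72 times the mean of the other control libraries. MDM2 stood at 1.49 times in estradiol replicate 4 and 1.47 times in control replicate 3, and GDF15 at 0.793 times in estradiol replicate 4 and 0.657 times in control replicate 3. The labels name no batch that would set these libraries apart. The same libraries parted from the rest over all genes, along a first principal component that held 68.7% of the variance.

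GC content moved with this layout. Over the 10454 tested genes with a GC value (genes, not replicates), Spearman's correlation between GC content and how far a library sat from the 8-library median was -0.846 in estradiol replicate 4 and -0.867 in control replicate 3, against -0.341 to 0.653 in the other 6. The 7 genes that were high in these libraries had transcripts of 36.4% (RRM2B) to 44.2% (TIGAR) GC, all below the median of 47.9% over tested genes. BTG2 had 50.3% and GDF15 62.9% GC. These values are those of the longest reference transcript. For FAS, TIGAR, SESN1 and GDF15 it was well short of the length behind the deposited values. The GC content of their counted sequence may therefore differ. Across the 9 genes, which share their libraries, the deviation from the median of the other 6 libraries had a Pearson correlation with GC content of -0.956 in estradiol replicate 4 and -0.956 in control replicate 3, and Spearman's rho was -0.883 and -0.867.

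**Figure D3:**
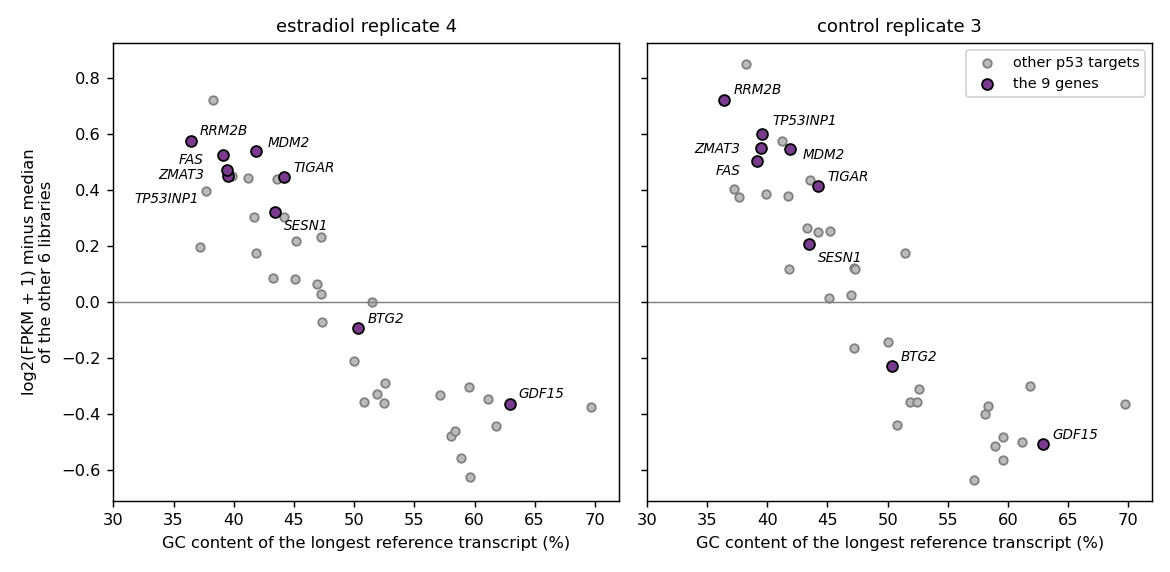
Deviation of estradiol replicate 4 (left) and control replicate 3 (right) from the median of the other 6 libraries, in log2(FPKM + 1), against the GC content (%) of the longest reference transcript, for the 9 genes (purple) and 31 other p53 targets (grey). Genes with GC-poor transcripts such as RRM2B (36.4%) lie above 0 and GC-rich ones such as GDF15 (62.9%) below it.

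After each library's GC trend was taken out, most deviations were smaller but not all were near 0. In estradiol replicate 4 that of RRM2B was 0.13, against 0.58 before removal, and in control replicate 3 it was 0.26, against 0.72. GDF15 came to 0.01 in estradiol replicate 4 and -0.09 in control replicate 3, against -0.36 and -0.51 before removal. MDM2 kept 0.28 and 0.31 of its 0.54 and 0.55, and TIGAR 0.29 and 0.28 of its 0.45 and 0.41, in estradiol replicate 4 and control replicate 3. BTG2 did not shrink in estradiol replicate 4, where it turned to 0.10, against -0.09 before removal. Whether GC content or another property of these libraries accounts for the layout was not tested.

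Before any GC correction the genes were split into 2 sets by their place in estradiol replicate 4 and control replicate 3. The 7 genes that were high in both formed a set. High correlations within it, and lower ones with BTG2 and GDF15, follow largely from that choice. After each group was centred on its mean, the 21 pairs among these 7 genes had Pearson correlations from 0.773 to 0.997 over the 8 libraries, which share the layout above. BTG2 and GDF15 correlated with each other at 0.710 and with the 7 at -0.936 to -0.660. With the GC trend removed, the 21 pairs ran from 0.00945 to 0.982 (MDM2 and TIGAR), with a median of 0.787. After that removal the deviations of all 7 genes in estradiol replicate 4 and control replicate 3 were still above 0. Those of MDM2 and TIGAR were the largest. What the remaining correlations reflect was not tested. The division into 2 sets did not remain: BTG2 and GDF15 then correlated at 0.034, and their pairs with the 7 ran from -0.529 to 0.576, those of BTG2 all being positive. The closest genes were sought by the group-centred correlation before GC removal, so the layout enters these values too. They were ERBIN (0.9992) and ADSS2 (0.9988) for MDM2, and NDUFS8 (0.9989) and PTBP1 (0.9978) for GDF15. DDHD1 (0.9970) and SQLE (0.9968) were closest to FAS, and UBN1 (0.9874) and MED27 (0.9865) to BTG2. For TP53INP1 the closest genes were STT3B (0.9992) and DHX29 (0.9991), for ZMAT3 TDP2 (0.9989) and MAP4K5 (0.9988), for RRM2B BPNT2 (0.9990) and DNAJB9 (0.9990), for TIGAR SCYL2 (0.9994) and NCKAP1 (0.9981), and for SESN1 CYRIA (0.9908) and RXYLT1 (0.9870). Such likeness was common for MDM2, where 17.1% of tested genes exceeded a correlation of 0.95, and rare for SESN1 (0.550%) and BTG2 (0.70%).

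Estradiol against control was also read with estradiol replicate 4 and control replicate 3 left out, and with a term for them. These libraries were picked by their values in these data, since the labels name no batch. The intervals and p-values of such fits may therefore be too narrow. In the 6 other libraries MDM2 averaged 40.6 ± 1.93 FPKM with estradiol and 41.3 ± 2.82 FPKM in control (SD, n = 3 each, here and in the next sentences). GDF15 averaged 503 ± 28.2 FPKM with estradiol and 549 ± 61.3 FPKM in control. FAS averaged 2.37 ± 0.0873 FPKM with estradiol and 2.62 ± 0.333 FPKM in control. These differences were smaller than the gaps to the libraries left out. No gene of the 9 passed limma there (smallest adjusted p 0.992), and the intervals of the log2 fold change reached from -0.30 to 0.19. A fit with a term for these libraries kept them in, and its log2 fold changes equalled those of the fit without a covariate. Its intervals lay within -0.23 and 0.18, with a smallest unadjusted limma p of 0.0866, for TP53INP1. Between the libraries themselves, estradiol replicate 4 minus control replicate 3 was -0.01 for MDM2, 0.15 for GDF15, -0.15 for RRM2B and -0.15 for TP53INP1 on the log2(FPKM + 1) scale, with no replicate.

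Leaving out 1 library turned the sign in 17 of 72 values of the 9 genes. Some turned without libraries other than these: MDM2 without each of the other estradiol libraries, RRM2B without each of the other control libraries, GDF15 without control replicate 1 (0.055), SESN1 without control replicate 2 (-0.00028) and TIGAR without control replicate 4 (-0.036). Without control replicate 3 the log2 fold changes of MDM2, TP53INP1, FAS and ZMAT3 were 0.12, 0.05, 0.04 and 0.06, and that of GDF15 was -0.20. Without estradiol replicate 4 those of RRM2B, SESN1 and TIGAR were -0.13, -0.04 and -0.07, that of GDF15 was 0.03, and that of MDM2 was -0.16. No gene of the 9 passed in either fit. BTG2 alone of the 9 kept a positive value in all 8 fits that left out a library, from 0.0080 to 0.10, none of which passed.

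The wider p53 programme gave no call either. Of 31 other p53 targets, all of which were tested, 0 passed in either direction against a background of 0%, with 13 positive and 18 negative log2 fold changes and a median of -0.01 (-0.000471 over all tested genes). CDKN1A, the cyclin-dependent kinase inhibitor p21, was the most abundant, at 257 ± 40.4 FPKM with estradiol and 261 ± 34.8 FPKM in control (SD, n = 4 each; log2 fold change -0.03 ± 0.14 SE). TNFRSF10B, a death receptor for TRAIL, stood at 139 ± 10.2 FPKM with estradiol and 141 ± 8.57 FPKM in control. The smallest unadjusted p of the list, 0.523, belonged to the kinase gene PLK2, at 122 ± 9.46 FPKM with estradiol and 118 ± 5.99 FPKM in control, ahead of PPM1D and RPS27L. PPM1D, a phosphatase that dampens p53, stood at 4.73 ± 0.218 FPKM with estradiol and 4.56 ± 0.311 FPKM in control. RPS27L, a ribosomal protein relative, stood at 29.5 ± 0.726 FPKM with estradiol and 28.7 ± 4.21 FPKM in control. In this list 12 genes were above the other 6 libraries in both estradiol replicate 4 and control replicate 3, with a median GC content of 41.8%, and 14 were below, at 58.2%. These are 38.7% and 45.2% of the list, near the 34.6% and 43.9% of all tested genes.

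p53 and its regulators formed a list of 19 genes, of which 18 were tested. Of these 0 passed, against 0% of all tested genes (12 positive and 6 negative log2 fold changes, median 0.03). RPL5 and RPL11, ribosomal proteins that can bind MDM2, were the most abundant of the list. RPL5 stood at 671 ± 33.3 FPKM with estradiol and 650.5 ± 42.6 FPKM in control, and RPL11 at 482 ± 77.8 FPKM with estradiol and 467 ± 44.2 FPKM in control (SD, n = 4 each). CHEK2, a checkpoint kinase, had the smallest unadjusted p, 0.337, at 1.73 ± 0.195 FPKM with estradiol and 1.58 ± 0.148 FPKM in control. PML, the scaffold of nuclear bodies, had the most negative value of the list, -0.13 ± 0.15 (log2 fold change ± SE), at 5.05 ± 0.741 FPKM with estradiol and 5.69 ± 1.24 FPKM in control. CDKN2A, whose product ARF inhibits MDM2, was listed at 0 in all 8 libraries.

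The partners and relatives of the 9 genes numbered 20, of which 14 were tested. Of these 0 passed, against 0% of all tested genes (4 positive and 10 negative, median -0.02). RRM1, the large subunit with which RRM2B works, stood at 18.7 ± 2.56 FPKM with estradiol and 17.6 ± 1.51 FPKM in control (log2 fold change 0.08 ± 0.11 SE). FADD, the FAS adaptor, stood at 44.3 ± 6.09 FPKM with estradiol and 44.2 ± 4.12 FPKM in control. SESN2, a relative of SESN1, stood at 42.7 ± 4.21 FPKM with estradiol and 44.3 ± 8.52 FPKM in control. It is also in the list of other p53 targets. TOB1, of the BTG family, stood at 4.98 ± 0.537 FPKM with estradiol and 5.35 ± 0.129 FPKM in control and had the smallest unadjusted p, 0.320. TP53INP2, the relative of TP53INP1, stood at 14.7 ± 1.24 FPKM with estradiol and 15.5 ± 1.08 FPKM in control (SD, n = 4 each). Of the ligand and receptor genes, FASLG, the FAS ligand, was at 0.0141 FPKM in 1 estradiol library and listed at 0 in the others, and GFRAL, the GDF15 receptor, was listed at 0 in every library.

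GDF15 is also a target of ATF4 and CHOP, the factors of the integrated stress response, so their branch was read beside it. Of its 10 genes 0 passed, against 0% of all tested genes, with 5 positive and 5 negative log2 fold changes and a median of -0.0047. DDIT3, which encodes CHOP, stood at 276 ± 27.9 FPKM with estradiol and 277 ± 40.5 FPKM in control, and ATF3 at 324 ± 22.3 FPKM with estradiol and 319 ± 30.03 FPKM in control. The smallest unadjusted p was that of CHAC1, 0.475, at 6.50 ± 0.768 FPKM with estradiol and 7.06 ± 1.27 FPKM in control (SD, n = 4 each). VLDLR followed at 5.60 ± 0.496 FPKM with estradiol and 5.89 ± 0.433 FPKM in control, and DDIT4 at 93.2 ± 13.6 FPKM with estradiol and 97.4 ± 12.6 FPKM in control. In 7 of these 10 genes (70%), as in GDF15, estradiol replicate 4 and control replicate 3 were both below the other 6 libraries. DDIT3 and ATF3 were among them, and the share over all tested genes was 43.9%. These 7 genes had a median GC content of 56.7%. In 3 genes (30%, against 34.6% of all tested genes) both libraries were above, at a median of 42.3%. Whether this layout reflects shared control with GDF15 was not tested.

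**Figure D4:**
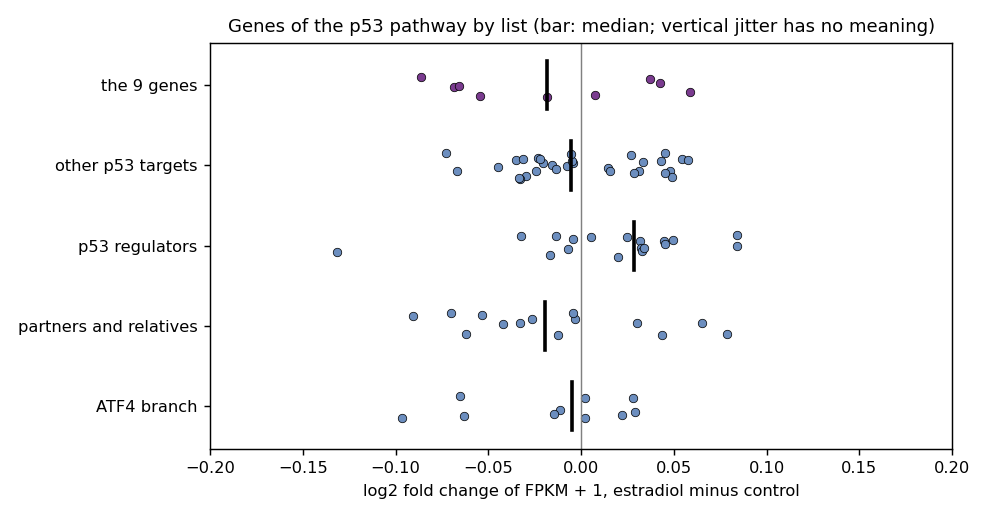
Log2 fold change of FPKM + 1 (estradiol minus control) of each tested gene, by list; bars mark medians, which are -0.02 for the 9 genes and for their partners and relatives and 0.03 for p53 and its regulators. The values run from -0.13 (PML) to 0.08, and 0 genes passed the test.

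The recovered depth was 33421051 reads in estradiol replicate 2 and up to 39899258 reads in control replicate 4. The 9 genes rested on 657 reads (SESN1, estradiol replicate 2) to 41821 reads (GDF15, control replicate 1) per library. Counting error alone, which leaves out any other error, was at most 3.90% of a value, for SESN1, against a spread between libraries of 16.8% with estradiol and 11.8% in control for that gene. For BTG2 it was up to 3.68%, close to the spread of 3.86% with estradiol and below the 8.78% in control. The cells carried endothelial markers, with 11 of 13 at a mean of 1 FPKM or more (summed level 498 to 642 FPKM with estradiol and 495 to 672 FPKM in control), while VWF and EMCN were under it. For non-endothelial cell types, 0 of 6 fibroblast genes, 1 of 6 leukocyte genes (CD68), 2 of 5 smooth muscle genes (ACTA2 and SMTN) and 2 of 6 epithelial genes (KRT8 and KRT18) reached that level.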

How the data were processed

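RNA of 8 TeloHAEC libraries, 4 estradiol and 4 control, was grouped by sample title. The authors deposited FPKM values in 1 table of gene symbols by libraries. fastp 0.20.1 and HTSeq are named in the submitters' processing notes. Aligner, build, annotation and strand setting: not given in the sources used here. Whole reads were recovered from the FPKM steps (100% of 152348 values above 0 within a relative tolerance of 1e-06). log2(FPKM + 1) of the 10720 genes averaging 1 FPKM or more was fitted in R 4.3.3 by limma 3.58.1 (trended variance, two-sided, no covariate), a step tested on simulated data. GC content came from the longest GENCODE 29 transcript of each gene name (97.5% of tested genes), and its trend was removed by lowess. The other steps used Python 3.11.15 (matplotlib 3.10.9, scipy 1.17.1, pandas 2.3.3, numpy 2.4.6). The 9 genes, the lists and the tests were chosen with earlier results of these data known. Named in the text are the 9 genes, the 2 genes most like each, and in each list the 3 with the smallest p and the 2 with the highest mean; CDKN2A, FASLG and GFRAL were added after their values were seen. Alternatives were other pseudocounts, filters and scalings, no trend, a replicate block, left-out libraries, array weights, a term for 2 libraries, GC removal and limma-voom.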

Additional observations from a re-analysis of the deposited data

Results flagged for a closer look

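In groups of 4 libraries, a value was marked where its gap to the nearest other library, as a share of the range of the group, exceeded Dixon's 95% critical value for 4 samples, which chance passes in about 1 of 20 groups. Of 56 groups over 28 named genes, 9 were marked, and in all 9 the library was estradiol replicate 4 or control replicate 3. The genes share the same 8 libraries, so the marks are not independent. Their number cannot be set against that chance rate.

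Among the p53 targets, estradiol replicate 4 stood above the other estradiol libraries with a share of 0.912 for TP53INP1 (16.4 FPKM), 0.894 for FAS (3.92 FPKM), 0.918 for ZMAT3 (19.4 FPKM) and 0.959 for RRM2B (86.1 FPKM). Control replicate 3 stood above the other control libraries with a share of 0.833 for RRM2B (95.5 FPKM).

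Among genes of the other lists, estradiol replicate 4 was highest for RPL5 (share 0.848, 720.2 FPKM) and lowest for RPL11 (0.937, 365 FPKM) and ATF3 (0.861, 291 FPKM). Control replicate 3 was lowest for DDIT3 (0.844, 217 FPKM).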

How the results depend on the processing

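Under all 21 alternatives 0 genes and 0 of the 9 p53 targets passed, but the median log2 fold change of the 9 (-0.02) ran from -0.13 (without estradiol replicate 4) to 0.06 (without control replicate 3) with 1 library left out and was positive in 4 of those 8 fits. Genes at an unadjusted p under 0.05 numbered 26, and 4 (filter at 5 FPKM) to 888 (array weights) under the alternatives, with 0 of the 9 genes among them (smallest unadjusted limma p 0.0742; smallest adjusted limma p 0.664). With 1 library left out, 17 of 72 values of single genes turned sign, and the log2 fold change ran from -0.16 to 0.12 for MDM2, -0.20 to 0.051 for TP53INP1, -0.042 to 0.11 for SESN1, -0.20 to 0.055 for GDF15, -0.21 to 0.038 for FAS, -0.19 to 0.059 for ZMAT3, -0.13 to 0.20 for RRM2B and -0.073 to 0.15 for TIGAR; the cause was not tested. RRM2B came to -0.000398 with the GC trend removed, against 0.01. FAS and SESN1 were not tested under the filter at 5 FPKM, which they miss. With the replicate block 0 genes and 0 of the 9 passed, and 11 genes had an unadjusted limma p under 0.05. Same-numbered libraries correlated at 0.616, 0.0728, -0.478 and -0.737 in their deviations from the group means. Estradiol replicate 4 and control replicate 3, which carry different numbers, correlated at 0.791. Their shared layout enters all of these values, which therefore cannot decide whether the numbers pair the samples. The labels state no pairing, and none was taken. On the reference transcript length, added after seeing the data, the levels of FAS, TIGAR, SESN1 and GDF15 were higher and those of the lower genes changed order. Counting error was up to 3.90% of a value.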
